A study of Mus musculus with 16 samples.

Results

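The α-globin and β-globin gene clusters and their upstream control regions were examined for open chromatin in mouse hematopoietic progenitors. Peaks of ATAC-Seq, an assay in which a transposase inserts adapters into accessible DNA, were taken within 100 kb of the 5′ end of 7 globin genes. These were Hba-x, Hba-a1 and Hba-a2 on chromosome 11 and Hbb-bt, Hbb-bs, Hbb-bh1 and Hbb-y on chromosome 7. The 49000 most significant peaks of each of 16 libraries on chromosomes 1 to 19 and X were merged into 90549 regions. Of these, 42 lay in the globin windows, 30 in the α window and 12 in the β window. Within these merged peaks the regions were chosen by position.

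The cells were fetal liver progenitors negative for lineage markers, immortalized by retroviral HoxB8 fused to an estrogen-regulated domain and grown with β-estradiol. The 4 groups held 4 libraries each: hi-77+/+ cells with an empty vector, and hi-77-/- cells, which lack the -77 enhancer of Gata2, with an empty vector, with GATA2 or with 9aa-Ins. GATA2 was murine and HA-tagged, and 9aa-Ins is GATA2 with 9 amino acids inserted between its zinc fingers. All cells were infected for 3 d with a GFP retrovirus and sorted by FACS. The labels name no separate line within a genotype, so an effect of the deletion and a difference between the cell lines cannot be told apart. The labels give numbered replicates with no culture of origin, and p-values therefore measure the spread between these libraries.

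Globin genes are expressed at very high levels in maturing erythroid cells. The β-like genes are driven by the locus control region (LCR), a series of hypersensitive sites upstream of the embryonic gene Hbb-y that is bound by GATA1, TAL1, LDB1, KLF1 and NF-E2. The α-like genes are driven by enhancers upstream of the embryonic gene Hba-x, most of them inside introns of the neighboring gene Nprl3, and are named by their distance from the cluster. GATA2 precedes GATA1 in hematopoietic progenitors and recognizes the same WGATAR words (W is A or T and R is A or G).

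Each region in a library was given a rank score. The score was 0 where the library had no peak, and otherwise rose to 100 for the most significant peak of that library. Regions with a peak in at least 4 libraries were tested with limma across all 16 libraries (57174 regions, 24 of them in the globin windows), with Benjamini-Hochberg adjustment over all of them. A region whose peaks lay nearly all in 1 group could enter the test only through that group and had to differ. This held for the region 8.5 kb upstream of Hbb-y, the region past the 3′ end of Hbb-bt, the region 60.0 kb past the Hbb-y 5′ end and the Rhbdf1 promoter, which are described without a p and are included in the counts of calls. The fold enrichments in each list were whole multiples of a single step for 100% of peaks (tolerance 0.05 of a step), so the number of reads stacked at a peak's summit, its pileup, could be worked out. The background pileup, a stand-in for relative depth, ranged from 0.301 to 0.890 between libraries. The smallest pileup among the kept peaks was 7 to 9 in the hi-77+/+ empty libraries, 7 or 8 in the hi-77-/- empty libraries, 7 in the GATA2 libraries and 9 to 11 in the 9aa-Ins libraries. A score of 0 in a 9aa-Ins library thus allowed a deeper pileup than a score of 0 in a GATA2 library. For that reason the complete lists are given beside several of the weak regions.

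Between 989 and 5620 of the kept peaks in a library belonged to a block of tied peaks at the bottom of the list, where position decided which were kept. The lists of progenitor, erythroid and hepatocyte genes were used to check the label of the cells. All 9 progenitor genes (Kit, Cd34, Ptprc, Runx1, Spi1, Myb, Fli1, Lyl1 and Tal1) had a peak within 1 kb of the 5′ end in all 16 libraries. None of the 5 hepatocyte genes had one in any library. Among the terminal erythroid genes, Epb42, Alas2 and Rhag had none, and Slc4a1 had one in 1 library.

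The sequences of the regions on which the results turn were read from the plus strand of GRCm38, the build of the files (mm10). Capitals mark WGATAR words (AGATAA and AGATAG, and the same words starting with T in place of the first letter). They also mark the word TGAGTCA, and E-boxes (the letters CANNTG) that lie 6 to 14 bases before a WGATAR word, on either strand. A match is a description of letters and not a sign of binding. In the β window, the LCR region found in every library, its weaker neighbor, the region past the 3′ end of Hbb-bt, and the region that was accessible with GATA2 are shown.
LCR, 7.9 kb upstream of Hbb-y, central 300 bases, chr7:103860942-103861241: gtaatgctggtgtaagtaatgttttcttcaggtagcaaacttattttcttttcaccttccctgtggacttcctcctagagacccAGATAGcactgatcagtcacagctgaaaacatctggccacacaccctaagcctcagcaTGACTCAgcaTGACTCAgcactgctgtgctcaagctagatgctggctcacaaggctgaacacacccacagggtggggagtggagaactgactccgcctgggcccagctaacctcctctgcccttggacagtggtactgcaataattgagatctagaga
LCR, 8.5 kb upstream of Hbb-y, chr7:103861603-103861806: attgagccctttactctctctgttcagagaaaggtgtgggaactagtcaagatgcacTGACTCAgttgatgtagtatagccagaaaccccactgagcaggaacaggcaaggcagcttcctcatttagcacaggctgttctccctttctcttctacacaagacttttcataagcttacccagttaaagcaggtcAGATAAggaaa
Past the 3′ end of Hbb-bt, chr7:103812262-103812422: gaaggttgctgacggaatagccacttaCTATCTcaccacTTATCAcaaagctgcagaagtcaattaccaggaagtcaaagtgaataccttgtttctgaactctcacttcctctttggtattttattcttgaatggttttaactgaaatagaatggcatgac
60.0 kb past the Hbb-y 5′ end, chr7:103793034-103793326: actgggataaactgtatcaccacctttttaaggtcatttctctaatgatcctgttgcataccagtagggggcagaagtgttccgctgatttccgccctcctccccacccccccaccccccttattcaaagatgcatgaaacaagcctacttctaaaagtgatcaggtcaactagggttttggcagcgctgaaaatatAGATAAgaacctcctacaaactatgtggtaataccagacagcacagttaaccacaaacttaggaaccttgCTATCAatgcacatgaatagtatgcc

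In the α window, the Nprl3 intron regions 37.7 and 11.1 kb upstream of Hba-x and the Il9r regions with the largest differences are shown. Of these Nprl3 regions, only the one 11.1 kb upstream lay within 1.5 kb of a place where an enhancer is known. The Il9r promoter is given upstream of its annotated 5′ end only, and Il9r is transcribed from the minus strand.
Nprl3 intron, 37.7 kb upstream of Hba-x, central 300 bases, chr11:32238537-32238836: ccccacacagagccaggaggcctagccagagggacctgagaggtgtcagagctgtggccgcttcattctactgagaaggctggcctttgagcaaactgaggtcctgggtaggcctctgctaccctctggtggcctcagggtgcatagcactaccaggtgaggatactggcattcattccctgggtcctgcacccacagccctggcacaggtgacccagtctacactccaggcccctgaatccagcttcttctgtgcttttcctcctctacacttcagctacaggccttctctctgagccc
Nprl3 intron, 11.1 kb upstream of Hba-x, chr11:32265171-32265408: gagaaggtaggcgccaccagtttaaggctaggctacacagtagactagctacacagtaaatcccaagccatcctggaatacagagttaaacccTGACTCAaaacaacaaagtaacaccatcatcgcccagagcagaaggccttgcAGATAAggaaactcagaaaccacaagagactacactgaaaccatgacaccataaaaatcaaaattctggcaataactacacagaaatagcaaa
Il9r intron, central 300 bases, chr11:32196081-32196380: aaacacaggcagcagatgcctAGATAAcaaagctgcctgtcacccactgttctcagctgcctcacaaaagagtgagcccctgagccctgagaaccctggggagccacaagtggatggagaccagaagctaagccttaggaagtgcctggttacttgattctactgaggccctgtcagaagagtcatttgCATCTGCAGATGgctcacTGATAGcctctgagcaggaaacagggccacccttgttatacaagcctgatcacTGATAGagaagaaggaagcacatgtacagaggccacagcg
Il9r upstream of the 5′ end, chr11:32200280-32200579: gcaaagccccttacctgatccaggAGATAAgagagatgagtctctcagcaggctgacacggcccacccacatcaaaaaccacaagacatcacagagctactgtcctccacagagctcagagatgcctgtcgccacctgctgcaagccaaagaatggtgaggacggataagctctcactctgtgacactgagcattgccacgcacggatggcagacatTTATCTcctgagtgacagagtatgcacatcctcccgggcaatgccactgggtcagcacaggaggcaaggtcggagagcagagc

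The LCR region 7.9 kb upstream of Hbb-y held 2 TGAGTCA words within 15 bases of each other. Such a pair is the arrangement known for NF-E2 binding in the LCR, and it occurred in 170 of all 90549 regions (0.188%) and in 0.3% of the 7003 regions of like length (within 10% of its width). The region 8.5 kb upstream held a single TGAGTCA word and an AGATAA word, and 8.48% of regions of like length held at least 1 of the former. The 161-bp region past Hbb-bt held 2 WGATAR words, a number reached by 4.82% of regions of like length. In the Il9r intron region 3 WGATAR words were found, and a pair of adjoining E-boxes preceded one of them at the spacing searched, while 5.51% of regions of like length held any such E-box. WGATAR words were found in 9 of 12 regions of the β window (75.0%), 9 of 30 of the α window (30.0%) and 38.7% of all regions. CCACACCC, the word bound by KLF1, was found in 2 regions of the α window, none of the β window and 5.55% of all regions.

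The globin promoters were almost without peaks in these progenitors. Among the kept peaks, none lay within 1 kb of the 5′ end of Hba-x, Hba-a2, Hbb-bt, Hbb-bs, Hbb-bh1 or Hbb-y in any of the 16 libraries. Hba-a1, an adult α-globin gene (chr11:32283511-32284465, plus strand), had a single peak, at chr11:32283557-32283647 in its UTR, in hi-77+/+ empty replicate 4. In the complete lists, Hba-a1 had a peak near its 5′ end in 3 libraries, Hba-a2 in 3, Hbb-bt in 2 and Hbb-bs in 1, and Hba-x, Hbb-bh1 and Hbb-y had none. The adult genes are near copies of each other, and the authors kept uniquely mapped reads. Of the 50-base words over each gene and 1 kb upstream, 31.7% for Hba-a1, 25.2% for Hba-a2, 56.6% for Hbb-bt and 59.5% for Hbb-bs occurred once in their window, against 100% for Hba-x, Hbb-bh1 and Hbb-y. None of the 42 words inside the Hba-a1 region occurred once. For the adult genes an absent peak may therefore reflect reads that could not be placed, which was not tested. The embryonic genes had no peak and no word repeated within their window, and the rest of the genome was not searched.

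**Figure D1:**
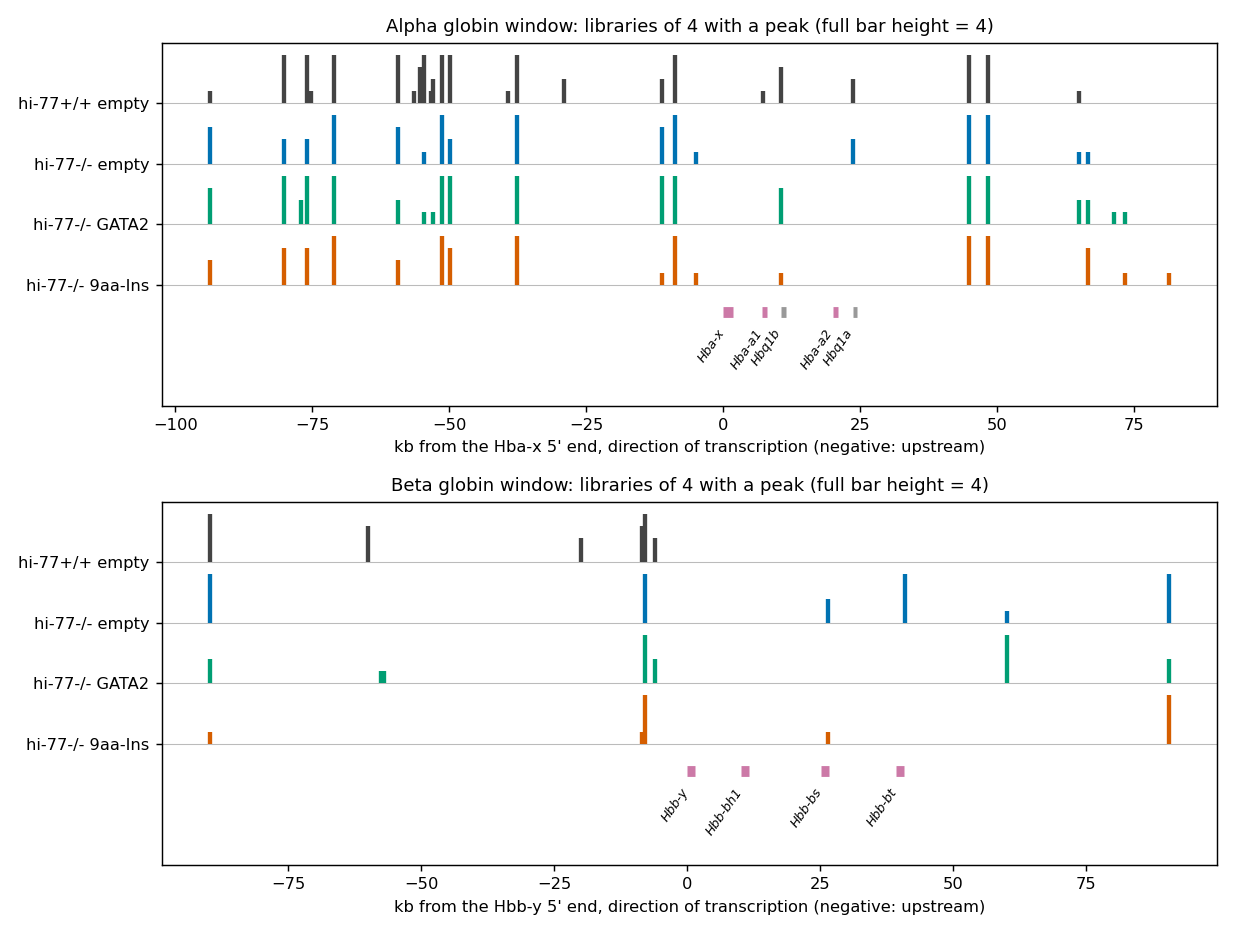
Position of all 42 regions in kb from the Hba-x or Hbb-y 5′ end (negative is upstream). Bar height is the number of libraries with a peak out of 4 in each group, and colored boxes below are globin genes. The LCR region 7.9 kb upstream of Hbb-y stands at full height in every group, while the gene bodies from Hbb-y to Hbb-bt and Hba-x are nearly bare.

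The upstream control regions were partly accessible. In the segment 1 to 30 kb upstream of Hbb-y, 4 regions had a peak, at 6.1, 7.9, 8.5 and 20.1 kb. On the α side, no peak of the kept or complete lists lay within 1.5 kb of the places 31, 26 and 21 kb upstream of Hba-x, where the enhancers HS-31, HS-26 and HS-21 are known. The nearest to HS-31 was chr11:32247202-32247328, 29.1 kb upstream, in 2 hi-77+/+ empty libraries only. The place of HS-12 was next to a region in 10 of 16 kept lists and all 16 complete lists. The place of HS-8 was next to the promoter region of Nprl3, found in all 16 libraries.

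Of the 42 regions, 7 had a peak in all 16 libraries, 17 in 4 to 15, 9 in 2 or 3 and 9 in 1. Besides the LCR region, the 7 included the promoters of Snrnp25 and Nprl3, a region 51.3 kb and an intronic region 37.7 kb upstream of Hba-x, and 2 intergenic regions 44.9 and 48.4 kb past the Hba-x 5′ end.

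**Figure D2:**
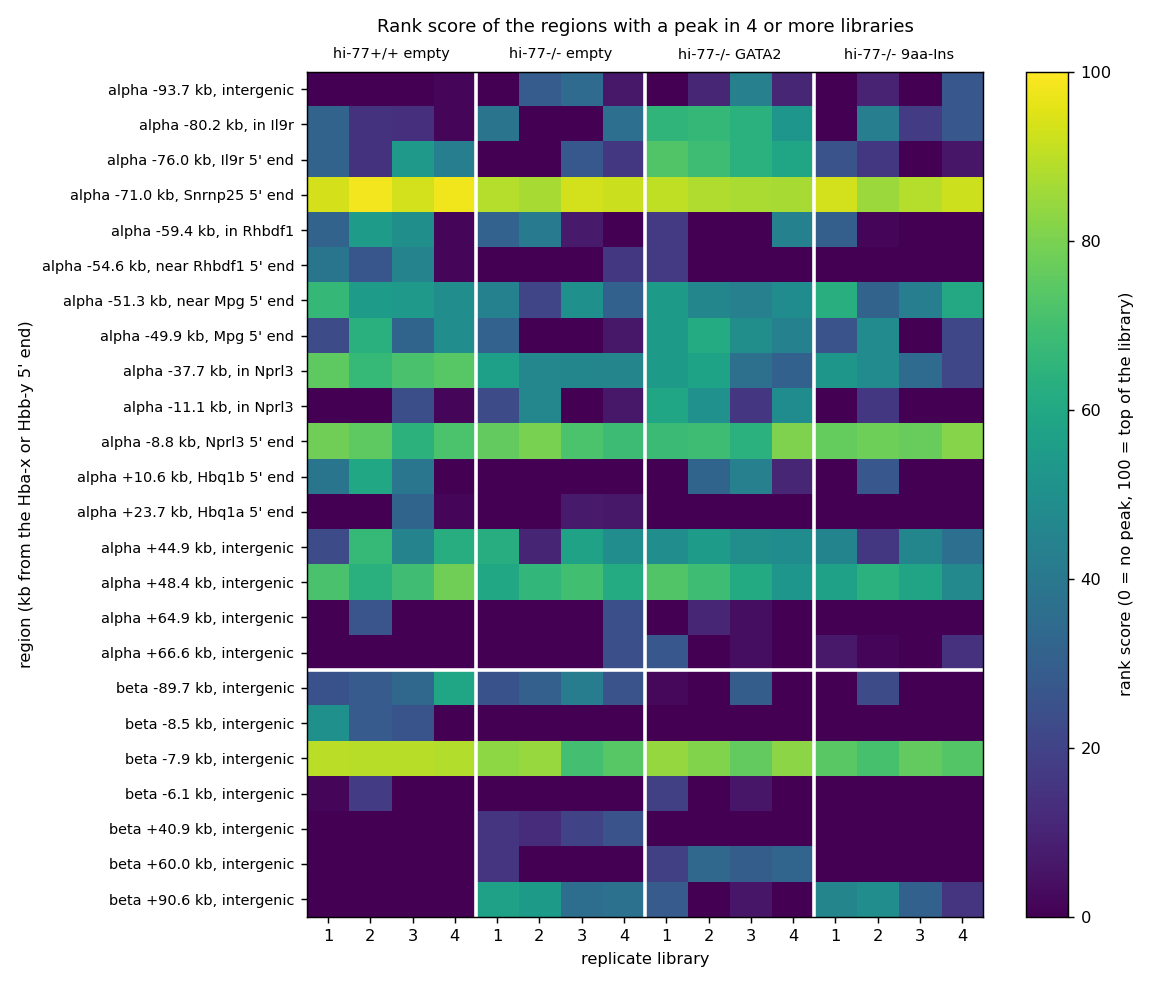
Rank score (color, 0 is no peak and 100 the top of the library) of the 24 regions with a peak in 4 or more libraries, in rows by kb from the Hba-x or Hbb-y 5′ end, and the 16 libraries in columns by group. The Snrnp25 promoter and the LCR region 7.9 kb upstream of Hbb-y are the brightest rows, and the Il9r rows are brightest in the 4 GATA2 libraries.

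The hi-77-/- empty and hi-77+/+ empty cells were compared to ask what differed in cells without the enhancer. In the globin windows 2 of 24 tested regions had a higher rank score in hi-77-/- empty and 9 had a lower one, against 21.2% and 19.1% of all 57174 tested regions. The 9 lower regions were 7 of the α window and 2 of the LCR, and both higher regions were in the β window, downstream of the β-globin genes. The region past Hbb-bt is 1 of the 2, and the region 8.5 kb upstream of Hbb-y and the Rhbdf1 promoter are among the 9. The median difference was -5.26 over the 24 regions and 0.0 over all tested regions. In presence calls (4 of 4 libraries against 0 of 4), 2 of 36 regions opened and 0 closed, against 4.29% and 2.53% of the 75729 regions with a peak in these groups. The exact Fisher test of 4 of 4 against 0 of 4 gives its smallest two-sided p, 0.0286, and the 36 regions in the windows cannot pass a correction on it.

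The LCR region chr7:103860898-103861285 was intergenic and 388 bp wide. Its scores were 89.7, 89.2, 89.3 and 88.5 in hi-77+/+ empty and 83.0, 84.5, 70.3 and 74.1 in hi-77-/- empty. The groups did not overlap, and the hi-77-/- empty libraries were lower, with a difference of -11.2 ± 2.78 (SE, adjusted p = 0.00335). Its pileups did overlap, at 35, 28, 35 and 29 reads in hi-77+/+ empty and 29, 33, 21 and 29 in hi-77-/- empty. Pileups are not scaled for depth, whereas a rank is taken within a library. With GATA2 the scores were 84.1, 81.2, 75.9 and 82.6, a difference of 2.98 ± 2.78 from hi-77-/- empty (adjusted p = 0.538). With 9aa-Ins they were 74.3, 70.8, 75.8 and 73.3, and the highest of them lay just below the lowest GATA2 library. The difference of 9aa-Ins from GATA2 was -7.40 ± 2.78, which missed the threshold (adjusted p = 0.0600).

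The weaker LCR region chr7:103861603-103861806 had scores of 50.3, 28.6, 25.9 and 0 in hi-77+/+ empty. It scored 0 in every hi-77-/- empty and GATA2 library and 0.2, 0, 0 and 0 with 9aa-Ins. Thus 1 hi-77+/+ empty library had no kept peak either. Pileups in the complete lists were 14, 9, 11 and 0 in hi-77+/+ empty, 6, 6, 0 and 0 in hi-77-/- empty, 0, 0, 0 and 5 with GATA2, and 11, 10, 6 and 0 with 9aa-Ins. The peak was thus weak rather than missing in some hi-77-/- libraries, and others had no peak listed there. The LCR region 6.1 kb upstream was found in 2 hi-77+/+ empty and 2 GATA2 libraries, with pileups of at most 9, and passed no test.

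The 161-bp region past the 3′ end of Hbb-bt, the adult β-globin gene farthest from the LCR, was present in every hi-77-/- empty library and no other. Its scores were 15.2, 12.5, 20.4 and 25.7, against 0 in all 12 other libraries. The pileups behind these peaks were 8, 8, 9 and 11 reads. In the complete lists hi-77+/+ empty still had no peak there, GATA2 had pileups of 0, 6, 0 and 5 and 9aa-Ins of 6, 5, 0 and 9. All 112 of its 50-base words occurred once in the β window. A further region, chr7:103826527-103826822 over the 3′ part of Hbb-bs (coding exon and UTR), was kept in 3 libraries and therefore not tested. Its pileups in the complete lists were 0, 0, 0 and 7 in hi-77+/+ empty, 6, 6, 11 and 10 in hi-77-/- empty, 0 in all GATA2 libraries and 11, 8, 6 and 9 with 9aa-Ins. Peaks at or just past the 3′ ends of both adult β-globin genes were thus found in each hi-77-/- empty library of the complete lists.

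The other β region that opened, chr7:103762299-103762879, lay among olfactory receptor genes 90.6 kb past the Hbb-y 5′ end. Its scores were 0 in hi-77+/+ empty, 57.1, 54.6, 36.1 and 37.7 in hi-77-/- empty, 28.9, 0, 6.2 and 0 with GATA2 and 45.7, 48.9, 31 and 15.6 with 9aa-Ins. It was higher in hi-77-/- empty than in hi-77+/+ empty by 46.4 ± 8.6 (adjusted p = 0.000279), a call that was lost when peaks had to cover 50% of a region (22.7, adjusted p = 0.127). Its sequence is a tandem repeat, and 96 of its 532 50-base words (18%) occurred once in the window, so its reads may have more than 1 possible origin. In the complete lists its pileups were 0, 6, 0 and 0 in hi-77+/+ empty and 15, 15, 11 and 13 in hi-77-/- empty. With GATA2 they were 10, 6, 7 and 7, and with 9aa-Ins 20, 21, 13 and 11.

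**Figure D3:**
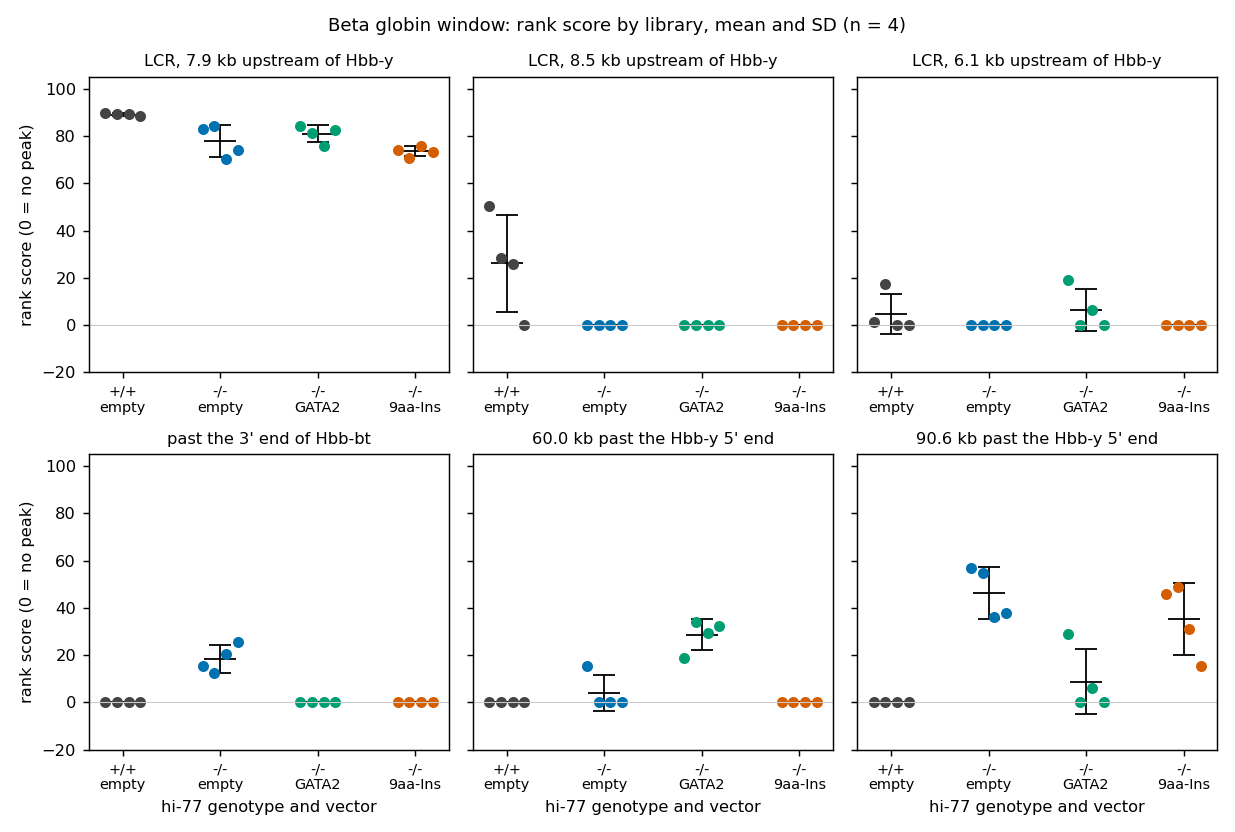
Rank score of 6 regions of the β window by group, with points for libraries and bars for the mean and SD (n = 4). The LCR region 7.9 kb upstream of Hbb-y falls from 88.5 or more in hi-77+/+ empty to 84.5 or less in hi-77-/- empty, and the region past the 3′ end of Hbb-bt is above 0 in hi-77-/- empty alone.

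In the α window the intronic Nprl3 region chr11:32238532-32238841, 37.7 kb upstream of Hba-x, was lower without overlap. Nprl3 encodes a subunit of the GATOR1 complex, which restrains mTORC1, and its introns hold most of the known α-globin enhancers. The region 37.7 kb upstream lay within 1.5 kb of none of the enhancer places examined. The scores were 75.0, 67.0, 71.4 and 74.1 in hi-77+/+ empty and 56.4, 46.3, 45.8 and 45.4 in hi-77-/- empty. The groups did not overlap, and the difference was -23.4 ± 7.33 (adjusted p = 0.0155). The scores were 54.3, 58.2, 36.8 and 31.1 with GATA2 and 53.1, 48.4, 34.9 and 21.2 with 9aa-Ins, and neither difference from hi-77-/- empty passed the test (-3.42 and -9.10, each ± 7.33, adjusted p = 0.837 and 0.635). The call was kept with each library left out in turn. Its pileups were 23, 16, 22 and 20 in hi-77+/+ empty and 15, 13, 13 and 15 in hi-77-/- empty. None of the words searched was found in it.

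The θ-globin gene Hbq1b lies between the adult α-globin genes, and its 5′ end held a peak (chr11:32286866-32287062, coding exon and UTR). The scores were 38.7, 59.7, 39.2 and 0 in hi-77+/+ empty and 0 in every hi-77-/- empty library. The hi-77-/- empty libraries were lower, with a difference of -34.4 ± 11 (adjusted p = 0.0173), and the call was lost without hi-77+/+ empty replicate 2 (-26.0, adjusted p = 0.0684). The scores were 0, 32.4, 43.7 and 10.9 with GATA2 and 0, 27.2, 0 and 0 with 9aa-Ins, and neither passed the test against hi-77-/- empty (adjusted p = 0.188 and 0.895). In the complete lists the region's pileups were 12, 14, 13 and 7 in hi-77+/+ empty and 7, 0, 7 and 8 in hi-77-/- empty. With GATA2 they were 0, 10, 11 and 8, and with 9aa-Ins 9, 15, 0 and 5. Of its 50-base words, 62.8% occurred once in the window. The second θ-globin gene, Hbq1a, had a region at its 5′ end in 4 libraries and passed no test.

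The other lower regions were at or near the promoters of the genes that flank the α cluster. They were Il9r, which encodes the interleukin 9 receptor, Snrnp25, which encodes a protein of the minor spliceosome, Rhbdf1, an inactive rhomboid protease, and Mpg, a DNA glycosylase of base excision repair. The Snrnp25 promoter (chr11:32204952-32205749) was the strongest region of both windows, with mean scores of 95.7 ± 2.61 (SD, n = 4) in hi-77+/+ empty and 90.2 ± 2.80 in hi-77-/- empty, lower, with a difference of -5.42 ± 1.85 (SE, adjusted p = 0.0247). The Rhbdf1 promoter (chr11:32221376-32222249) had 38.7, 26.6, 44.9 and 1.8 in hi-77+/+ empty and a kept peak in 1 of 4 hi-77-/- empty libraries. In the complete lists its pileups were 12, 9, 14 and 8 in hi-77+/+ empty and 6, 6, 5 and 10 in hi-77-/- empty. The Mpg promoter (chr11:32226197-32226785) had 23.1, 63.6, 32.4 and 49.0 against 31.5, 0, 0 and 6.5, lower, with a difference of -32.5 ± 10.5 (adjusted p = 0.0186). The region 51.3 kb upstream of Hba-x, 883 bp from the Mpg 5′ end, was lower, with a difference of -19.7 ± 7.77, at the edge of the threshold (adjusted p = 0.0497), and the Il9r promoter was lower, with a difference of -24.8 ± 9.09 (adjusted p = 0.0352).

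Several of these calls rested on single libraries. The Snrnp25 call was lost without hi-77+/+ empty replicate 2 or 4 or hi-77-/- empty replicate 1 or 2 (-4.60, -4.75, -4.96 and -4.36, adjusted p = 0.0628 to 0.0867). The Mpg call was lost without hi-77+/+ empty replicate 2 (-25.3, adjusted p = 0.0746) or hi-77-/- empty replicate 2 or 3 (-29.35, adjusted p = 0.0541 and 0.0521), and when peaks had to cover 50% of a region (-5.78, adjusted p = 0.828). The Il9r call was lost without hi-77+/+ empty replicate 3 or 4 or hi-77-/- empty replicate 1 or 2 (-18.7, -22.5, -21.2 and -21.2, adjusted p = 0.0902 to 0.131). The call 51.3 kb upstream was lost without hi-77+/+ empty replicate 1, 2 or 3 (-16.2, -20.1 and -20.4), hi-77-/- empty replicate 2 or 4 (-14.5 and -17.9), any GATA2 library or 9aa-Ins replicate 3 or 4 (-19.7 each, adjusted p = 0.0506 to 0.165 over all of these). The mean score over all tested regions of chromosome 11 moved the other way, from 35.1 to 38.4 in the hi-77+/+ empty libraries to 41.7 to 43.6 in the hi-77-/- empty libraries. With ranks taken within each chromosome, 11 regions passed the test, as in the comparison above.

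GATA2 was compared with the empty vector in hi-77-/- cells to ask what the factor restored or changed. Of 24 tested regions 4 were higher with GATA2 and 2 lower, against 8.51% and 12.4% of all tested regions. The median difference was 0.0704 over the 24 regions and 0.0 over all tested regions. The 4 higher were both Il9r regions, the Mpg promoter and a region downstream of the β-globin genes. The 2 lower were the region past Hbb-bt and the tandem repeat, both in the β window. In presence calls 0 of 31 regions opened and 1 closed, against 2.16% and 2.78% of all regions with a peak.

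The Il9r promoter (chr11:32200110-32200609) showed the largest difference. Its scores were 0, 0, 27.6 and 16.4 in hi-77-/- empty and 72.8, 68.8, 63.9 and 59.2 with GATA2. All 4 GATA2 libraries were above all hi-77-/- empty libraries, by 55.2 ± 9.09 on average (adjusted p = 0.000142), and also above the hi-77+/+ empty libraries, which had 31.7, 14.5, 54.2 and 42.9. The pileups in the complete lists were 0, 7, 10 and 10 reads in hi-77-/- empty and 20, 19, 16 and 16 with GATA2, without overlap. The Il9r intron region (chr11:32195924-32196536), with the adjoining E-boxes and 3 WGATAR words shown above, had 38.4, 0, 0 and 36.7 in hi-77-/- empty and 65.4, 66.7, 63.9 and 52.7 with GATA2. It was higher by 43.4 ± 10.5 (adjusted p = 0.00473), and the hi-77+/+ empty libraries, at 31.7, 14.5, 14 and 1.8, were all below the GATA2 libraries. Both Il9r calls were kept with each library left out in turn, and the intron call was lost when peaks had to cover 50% of a region (36.6, adjusted p = 0.119).

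At the Mpg promoter GATA2 gave scores of 54.3, 61.5, 49.3 and 43.9, higher than hi-77-/- empty by 42.7 ± 10.5 (adjusted p = 0.00548) and in the range of the hi-77+/+ empty libraries. When peaks had to cover 50% of the region this call was lost (15.4, adjusted p = 0.543). Pileups of the Mpg promoter in the complete lists were 14, 16, 12 and 12 with GATA2. They were 10, 6, 6 and 9 in hi-77-/- empty and 10, 15, 12 and 13 in hi-77+/+ empty. The β region chr7:103793034-103793326, intergenic and 60.0 kb past the Hbb-y 5′ end, had 15.2, 0, 0 and 0 in hi-77-/- empty and 19, 33.9, 29.5 and 32.5 with GATA2. Its pileups with GATA2 were only 9, 10, 9 and 10 reads. With all deposited peaks it passed no test against hi-77-/- empty (24.9, adjusted p = 0.363).

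The region past the 3′ end of Hbb-bt scored 0 in every GATA2 library and is the region that closed, with the pileups of the complete lists given above. The tandem repeat fell by 37.6 ± 8.6 (adjusted p = 0.00305), a call lost when peaks had to cover 50% of a region (-22.7, adjusted p = 0.191). Among the control regions, the region next to HS-12 had 58.6, 50.7, 15.9 and 48.6 with GATA2 against 23.4, 46.3, 0 and 6.5, a difference of 24.4 ± 10.3 that did not pass (adjusted p = 0.108). At the promoter of Nprl3, next to HS-8, the difference was -3.68 ± 3.80 (adjusted p = 0.588).

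9aa-Ins was compared with the same hi-77-/- empty libraries, so these comparisons share their controls. Of 24 tested regions 0 were higher and 1 was lower by limma, against 5.26% and 1.75% of all tested regions. The median difference of the 24 was -3.95, and that of all tested regions 0.0. At an unadjusted p under 0.05, limma and the exact permutation test each listed 2 of the 24. The lower region was the one past the 3′ end of Hbb-bt, which scored 0 in every 9aa-Ins library and had entered the test only through its hi-77-/- empty peaks. It was also the only region that closed, 1 of 27, and 0 opened, against 0.229% closed and 1.81% opened of all regions with a peak. Since 3 of 4 9aa-Ins libraries had a peak there in the complete lists, with pileups of 6, 5 and 9 where the kept lists began at 9 to 11, the presence call was lost with all deposited peaks. The Il9r promoter, at 25.7, 16.2, 0 and 5.9, differed from hi-77-/- empty by 0.935 ± 9.09 (adjusted p = 1.0). The Il9r intron region, at 0, 42.6, 17.5 and 27.3, differed by 3.09 ± 10.5 (adjusted p = 0.992), and the Mpg promoter, at 25.7, 48.4, 0 and 21.2, by 14.3 ± 10.5 (adjusted p = 0.581).

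9aa-Ins and GATA2 were compared directly to test the difference between the factors. Of 24 tested regions 1 was higher with 9aa-Ins and 4 were lower, against 16% and 8.27% of all tested regions. The median difference was -5.99 over the 24 regions and 0.204 over all tested regions. In presence calls 0 of 31 opened and 1 closed, against 3.69% and 1.83%. With all deposited peaks the split turned, to 8 higher and 0 lower of 41 tested, and the 9aa-Ins lists held 70547 to 108020 peaks against 50195 to 78185 for GATA2.

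The Il9r promoter was lower with 9aa-Ins than with GATA2, with a difference of -54.2 ± 9.09 (adjusted p = 0.000167), and no score overlapped. In the complete lists it had pileups of 15, 13, 7 and 10 reads with 9aa-Ins and 20, 19, 16 and 16 with GATA2, and with all deposited peaks the difference was -26.6 (adjusted p = 0.0561). The Il9r intron region was lower, with a difference of -40.3 ± 10.5 (adjusted p = 0.00720), but its pileups of 8, 19, 11 and 13 overlapped the 17, 18, 16 and 14 with GATA2. The call was lost with all deposited peaks (-17.2, adjusted p = 0.191) and when peaks had to cover 50% of a region (-30.8, adjusted p = 0.156). The Mpg promoter differed by -28.4 ± 10.5, which missed the threshold (adjusted p = 0.0565). Its pileups in the complete lists were 15, 21, 7 and 12 with 9aa-Ins and 14, 16, 12 and 12 with GATA2.

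The Nprl3 intron region next to HS-12 was lower with 9aa-Ins, with a difference of -39.4 ± 10.3 (adjusted p = 0.00750). Its scores were 58.6, 50.7, 15.9 and 48.6 with GATA2 and 0, 16.2, 0 and 0 with 9aa-Ins, so 1 GATA2 library fell below the highest 9aa-Ins library. Every library had a peak there in the complete lists, with pileups of 15, 13, 8 and 13 with GATA2, 7, 13, 9 and 9 with 9aa-Ins, 9, 13, 6 and 9 in hi-77-/- empty and 7, 5, 11 and 8 in hi-77+/+ empty. With all deposited peaks the difference was -14.9 (adjusted p = 0.362). The call thus rested on the kept lists, in which 3 of 4 9aa-Ins libraries had no peak there.

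In the β window the region 60.0 kb past the Hbb-y 5′ end scored 0 in every 9aa-Ins library, and 19, 33.9, 29.5 and 32.5 with GATA2. It is the region that closed, yet 9aa-Ins replicates 1 and 2 had a pileup of 10 there in the complete lists, and with all deposited peaks the difference was -17.1 (adjusted p = 0.394). The tandem repeat was the one region that was higher with 9aa-Ins, by 26.5 ± 8.6 (adjusted p = 0.0289). That call was lost without GATA2 replicate 2, 3 or 4 (23.6, 25.7 and 23.6) or 9aa-Ins replicate 1 or 2 (23.1 and 22), with adjusted p of 0.0656 to 0.103.

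**Figure D4:**
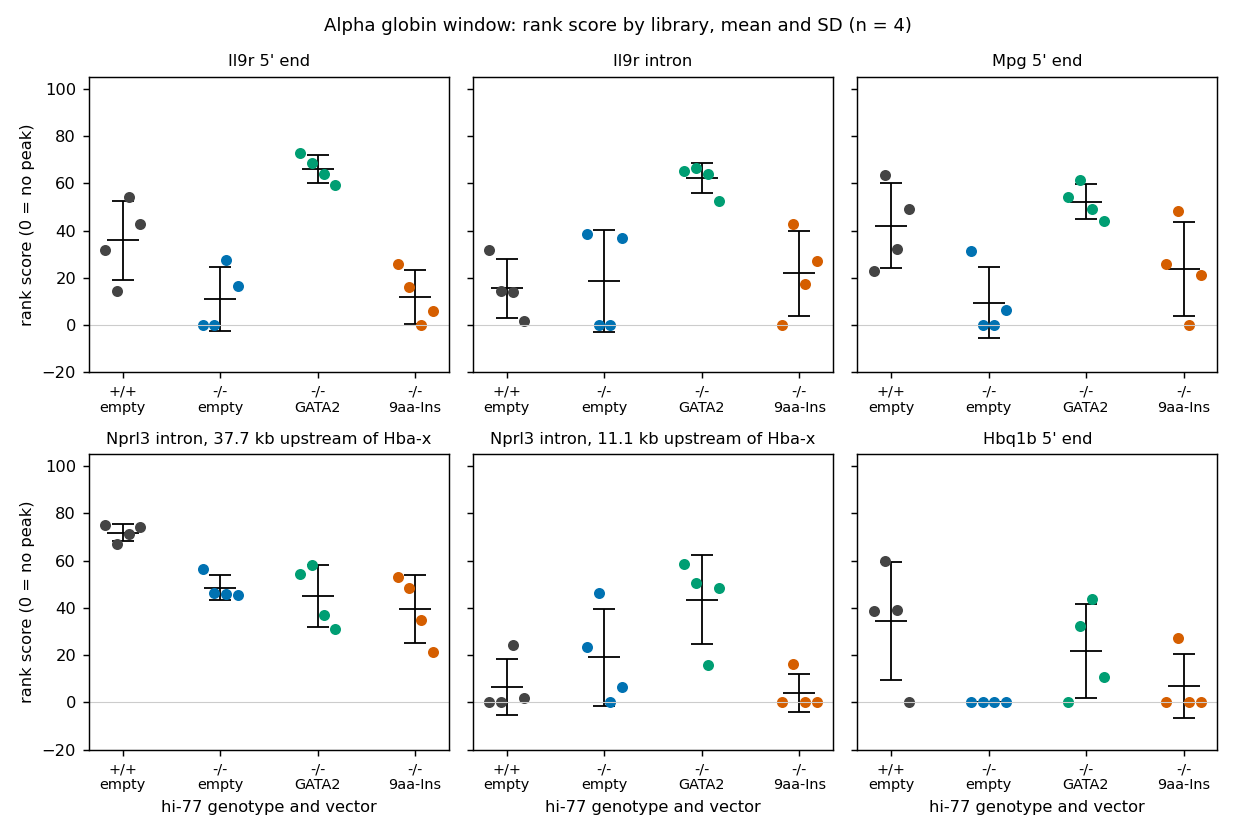
Rank score of 6 regions of the α window by group, with points for libraries and bars for the mean and SD (n = 4). The Il9r promoter is at 59.2 or more in all GATA2 libraries and at 25.7 or less in all 9aa-Ins libraries, while the Nprl3 intron 37.7 kb upstream of Hba-x is lower in hi-77-/- empty than in hi-77+/+ empty.

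Some regions differed in no comparison. The Nprl3 promoter (chr11:32267206-32267936) had mean scores of 72.3 ± 6.12, 74.0 ± 5.02, 70.4 ± 7.12 and 78.2 ± 2.57 (SD, n = 4 each) in hi-77+/+ empty, hi-77-/- empty, GATA2 and 9aa-Ins. The intergenic regions 44.9 and 48.4 kb past the Hba-x 5′ end had group means of 36.0 to 50.4 and 56.7 to 70.6. The region 89.7 kb upstream of Hbb-y (chr7:103942827-103943030) scored 25.0 to 59.3 in hi-77+/+ empty, 25.2 to 42.0 in hi-77-/- empty, and had a peak in 2 of 4 GATA2 and 1 of 4 9aa-Ins libraries. Its differences from hi-77-/- empty were -22.9 ± 8.97 and -25.1 ± 8.97 and did not pass (adjusted p = 0.0798 and 0.112).

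Promoters of genes that act on or with globin were examined for the same comparisons. Each gene was represented by a single annotated 5′ end, so a peak at another start site was not counted. The paper reports differentially accessible peaks with GATA2 at Gata1, which had no region by this count. Of 30 globin gene regulators, 26 had a region within 1 kb of the 5′ end, 25 of them in all 16 libraries, and Gata1, Lmo2, Sox6 and Dnmt1 had none. In hi-77-/- empty against hi-77+/+ empty 4 were higher and 4 lower, with a median difference of 1.43, against the 21.2% higher and 19.1% lower of all tested regions, so that neither count was above the background. Of the called promoters, those with the largest differences were Lin28b, an RNA-binding protein of the fetal program (lower, -40.5 ± 8.38, adjusted p = 0.000757), Nr2c1, a nuclear receptor that represses embryonic β-like globin (lower, -14.8 ± 5.83, adjusted p = 0.0497), and Tal1, a partner of GATA factors (higher by 13.5 ± 2.44, adjusted p = 0.000208). With GATA2 1 regulator was higher and 0 lower, with 9aa-Ins 0 and 0, and in 9aa-Ins against GATA2 0 were higher and 1 lower.

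Of 22 genes of heme synthesis and iron supply, 19 had a region and 18 were tested, with 3 higher and 4 lower in hi-77-/- empty against hi-77+/+ empty, near the same background of 21.2% and 19.1%. Cpox and Hmox1, which act in the making and breakdown of heme, were lower, with a difference of -23.9 ± 4.27 (adjusted p = 0.000192) and -20.9 ± 2.82 (adjusted p = 1.01e-05), and Abcb10, a mitochondrial transporter, with -12.3 ± 1.90 (adjusted p = 4.44e-05). The list held no call for GATA2 or 9aa-Ins against the empty vector, and 1 higher in 9aa-Ins against GATA2. Of 20 annotated genes of red cell structure and function, 12 had a region and 11 were tested, with 2 higher and 5 lower in hi-77-/- empty, beside the background of 21.2% and 19.1%. Among them was Gypc, which encodes glycophorin C (higher by 34.5 ± 8.56, adjusted p = 0.00328). Add2, which encodes β-adducin, had a kept peak in the 4 hi-77+/+ empty libraries only and so entered the test through that group alone. Epor, the erythropoietin receptor, was lower, with a difference of -18.2 ± 4.33 (adjusted p = 0.00233), higher with GATA2 by 16.4 ± 4.33 (adjusted p = 0.00900), and lower with 9aa-Ins than with GATA2, with a difference of -25.4 ± 4.33 (adjusted p = 0.000184). These were the only calls of that list in the comparisons with GATA2, and it held none for 9aa-Ins against the empty vector. Of the 10 other globin family genes, Hbq1b and Hbq1a alone had a region near the 5′ end.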

How the data were processed

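The authors trimmed reads with Trim Galore 0.4.1, aligned them to mm10 with Bowtie2 2.2.5, kept uniquely mapped reads, removed duplicates with Picard 2.26.0, shifted reads for the transposase and called peaks with MACS2 in each library, with no pooling (libraries: 75-bp kit). The deposited values used were each peak's fold enrichment, a ratio over background, and its −log10 p-value. No read totals were used, and the background pileup stands in for depth.

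Peaks on chromosomes 1 to 19 and X were ranked by −log10 p, then fold enrichment, then position, the first 49000 kept, and peaks sharing at least 1 bp merged. The rank score fell evenly from 100 to 0 over the 49000 ranks. limma 3.58.1 (R 4.3.3; trend and robust variance, 4 group means, all 16 libraries) was used with Benjamini-Hochberg adjusted p under 0.05, and Fisher's exact test for presence. The procedure was tested on simulated data. The simulation shuffled residuals across groups, so it did not reproduce regions with peaks in a single group only. GENCODE M21 on GRCm38 gave the annotation. Python 3.11.15 was used elsewhere.

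Named were regions within 1 kb of a globin 5′ end, within 1.5 kb of an α enhancer place, 1 to 30 kb upstream of Hbb-y, past a threshold or in all 16 libraries, and for gene lists at most 3 called genes of largest difference per comparison. Other regions are described after their values were seen. A gene of the lists is not reported here. The members and lists were chosen with earlier results of these data known. The alternatives were all or 24500 peaks, other ranking, overlap, width, tie, filter and variance settings, a replicate block, leaving out each library and an exact permutation test.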

Additional observations from a re-analysis of the deposited data

Results flagged for a closer look

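Of 80 groups of 4 libraries with unequal scores, 19 had 1 library that stood apart from the other 3 (by the ratio of its gap to the whole range). The rule flags about 1 in 20 groups of normally distributed values, which is no benchmark for scores with a floor at 0. In 11 of the 19 groups the value was 1.0 because a single library had a peak. They were the regions 60.0 kb past Hbb-y, Rhbdf1, 64.9 kb and 66.6 kb past Hba-x in hi-77-/- empty, those 93.7 kb upstream and 64.9 kb past Hba-x in hi-77+/+ empty, Rhbdf1 with GATA2, and those 8.5 and 89.7 kb upstream of Hbb-y, next to HS-12 and at Hbq1b with 9aa-Ins. The highest library also stood apart at the Nprl3 intron 37.7 kb upstream of Hba-x in hi-77-/- empty (0.916), where it lay nearer to the hi-77+/+ empty libraries. The other values were 0.922 for the LCR region 6.1 kb upstream of Hbb-y, 0.925 for the region next to HS-12 and 0.944 for Hbq1a in hi-77+/+ empty. With GATA2 they were 0.926 for the region 89.7 kb upstream of Hbb-y, 0.886 for that 44.9 kb and 0.855 for that 66.6 kb past Hba-x, and with 9aa-Ins 0.950 for the Rhbdf1 exon region 59.4 kb upstream of Hba-x.

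The effects of 9aa-Ins and GATA2 differed in the direct limma comparison at 5 regions. The differences in rank score, 9aa-Ins minus GATA2, were -54.2 at the Il9r promoter, -40.3 at the Il9r intron, -39.4 next to HS-12, -28.7 at the region 60.0 kb past Hbb-y, which entered the test only through its GATA2 peaks, and 26.5 at the tandem repeat.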

How the results depend on the processing

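Counts of globin-window regions past the limma threshold were 11, 6, 1 and 5 in the order hi-77-/- against hi-77+/+ empty, GATA2 against empty, 9aa-Ins against empty and 9aa-Ins against GATA2, and presence calls 2, 1, 1 and 1. With all deposited peaks the limma counts became 17, 5, 3 and 8 (the last 8 higher and 0 lower), and the last 3 presence counts 2, 0 and 4. With 24500 peaks the limma counts were 3, 2, 0 and 2 and the presence counts 0, 2, 0 and 2, and the region 51.3 kb upstream of Hba-x reversed (0.136 in the first comparison). With peaks narrower than 1 kb the presence counts of both 9aa-Ins comparisons were 0. With peaks covering 50% of a region the limma counts were 6, 2, 1 and 3, and GATA2 against empty gave 2 presence calls. With the tie block kept whole, a setting chosen after seeing the data, 9aa-Ins against empty gave 2 limma and 0 presence calls. By the exact permutation test all 4 limma counts were 0, since 4 against 4 libraries allow no p below 0.0286, which stayed above the threshold after adjustment (lowest 0.0873), and 5, 6, 2 and 5 regions had an unadjusted p under 0.05. Leaving out each library gave limma counts of 6 to 11, 5 to 8, 0 to 1 and 4 to 6 and presence counts of 2 to 4, 1 to 2, 1 to 2 and 1 to 2.

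Replicate numbers did not pair the libraries (correlation of same-numbered deviations -0.0542 to 0.0912, best with the own number in 11 of 48 cases). With the replicate block the limma counts were 11, 6, 1 and 6. Of 631 alternative values for the 23 named differences, 554 kept direction and side of the threshold, 76 kept direction only and 1 reversed. Ranking by fold enrichment repeated the main values, and leaving out a library outside a comparison left its difference unchanged. The tally includes both, so it is not a count of independent checks. Pileups of 7 to 11 at the end of the kept lists limit what an absent peak shows.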
